A study of Mus musculus with 22 samples.

Results

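The comparison described here set the anterior neural tube of arsenic-exposed mouse embryos against that of water controls at gestational day (GD) 9, hour 12, the latest of 3 stages. Its 7 arrays, 4 arsenic and 3 control, were chosen by the stage and treatment in the sample titles, out of 22 arrays in the series. Per the labels the embryos of both groups, controls included, were Folr2-/- and came from Folr2-/- dams, which lack a membrane receptor for folate, and no other genotype is in the comparison. Dams were injected intraperitoneally at GD7:12 and again at GD8:12, either with sodium arsenate at 9.6 mg arsenic per kg of body weight or with water at 10 µL per g. Tissue was taken 24 h after the second injection. The other stages lay 3 h (GD8:15, 4 arsenic and 4 control arrays) and 12 h (GD9:00, 3 arsenic and 4 control arrays) after that injection. RNA was amplified before labelling, and each sample was hybridised to a one-colour CodeLink oligonucleotide array. Per the labels, the study asked how arsenic affects gene expression in the embryo while the neural tube closes.

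Inorganic arsenic binds protein thiols and promotes oxidative stress, and cells commonly answer it with the heat shock response, the NRF2 antioxidant programme and the integrated stress response. The last of these slows translation and raises the factor ATF4, which drives genes for amino acid supply. The neural tube closes by the bending and fusion of the neural folds, its cells are dividing progenitors, and folate supplies the one-carbon units they use for nucleotide synthesis and methylation.

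No probe passed the threshold between arsenic and control embryos at GD9:12. Of 7848 probes tested, limma with Benjamini-Hochberg adjustment called 0 (0%) at an adjusted p under 0.05, and the lowest adjusted p was 0.958. At an unadjusted p under 0.05 stood 313 probes (3.99%), of which 147 were higher with arsenic (1.87%) and 166 lower (2.12%). With the authors' scaling kept, that split was 114 and 72, and with array medians subtracted it was 62 and 244. A test at that level passes 5% of probes when nothing differs, which is 392.4 of the 7848. When the spread was taken from all 22 arrays in place of these 7, again 0 (0%) were called, with a lowest adjusted p of 0.372, and 108 (1.38%) stood at an unadjusted p under 0.05. Because the labels do not say which arrays share a dam or litter, all p-values measure only the spread between these arrays.

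**Figure D1:**
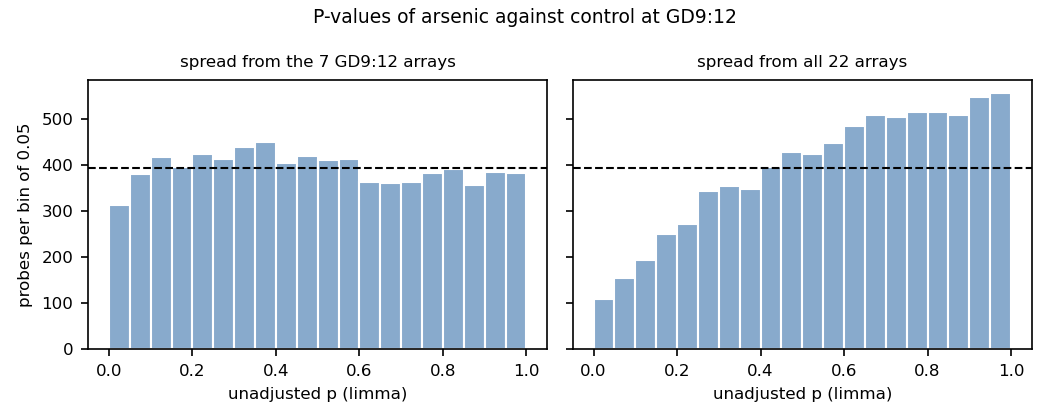
Distribution of the unadjusted limma p-values of the 7848 probes for arsenic against control at GD9:12, in bins of 0.05, with the spread taken from the 7 arrays of this stage (left) or from all 22 arrays (right). The dashed line marks the 392.4 probes per bin of an even distribution; the lowest bin holds 313 probes on the left and 108 on the right, below the line on both sides.

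The differences were small as well as uncalled. Their median was -0.01 on the log2 scale, with quartiles of -0.10 and 0.10, and the median standard error (SE) was 0.130. For 7210 probes (91.9%) the 95% confidence interval of the difference lay wholly within 2-fold in either direction. A difference above 0 was measured for 3642 probes (46.4%) and one below 0 for 4206 (53.6%). In 390 probes (4.97%) the 2 groups did not overlap, with all 4 arsenic arrays above all 3 controls in 162 (2.06%) and below them in 228 (2.91%).

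The 7 arrays agreed closely with each other across both groups. Over all probes, the correlation of 2 arrays of one group had a median of 0.962 and lay between 0.937 and 0.976, and that of an arsenic with a control array had a median of 0.961 and lay between 0.945 and 0.980. The median standard deviation (SD) of a probe was 0.134 in controls and 0.177 in arsenic arrays, against 0.187 to 0.271 in the groups of the earlier stages. Arsenic replicate 4 had a mean r of 0.954 with the other arsenic arrays and 0.967 with the controls. By smaller margins, the mean r with the other group was also the higher one for arsenic replicate 1 (0.965 and 0.967). The same was true of control replicates 1 (0.954 and 0.955), 2 (0.959 and 0.963) and 3 (0.967 and 0.969). Control replicate 1 carried a different code series in its title from the other 6 arrays, and 3.21% of its probes lay in stretches of consecutive probe numbers with low signal, against at most 0.324% on any other array. Without it, 0 probes were called and 232 stood at an unadjusted p under 0.05; without arsenic replicate 4 the counts were 0 and 626, and without arsenic replicate 3 they were 0 and 182. Differences of consecutively numbered probes correlated with each other (r = 0.187 over 7847 pairs, probes sharing the same arrays), so neighbours by number are given for several named probes. With each array's local trend along the probe numbers removed, an alternative chosen after seeing the data, the difference moved by over 1.5 times or changed sign for 25 of the 134 named genes with a value, and the new value is given beside those described here. A value stands for its probe: for 97 genes with 2 tested probes, the median correlation of the 2 probes was 0.202 over these 7 arrays, and 38 pairs had differences of opposite sign. Over all 22 arrays, which the differences between stages use, that median was 0.051, and 43 of the 97 pairs correlated below 0.

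Embryo sex was not given in the labels, and the Xist level was uneven among the controls. Xist, the RNA that coats the inactive X chromosome of females, read 11.34, 6.99 and 6.88 in control replicates 1 to 3 and 7.12, 6.93, 7.15 and 7.05 in the arsenic arrays (log2 intensity). Only control replicate 1 was high, and the difference of -1.34 gave a two-sided exact permutation p of 0.4, where the smallest p these 35 regroupings allow is 0.0286. The Y-linked Eif2s3y read 7.06, 7.46 and 7.66 in controls and 7.62, 8.14, 7.82 and 7.51 with arsenic, a difference of 0.38 with an exact permutation p of 0.143. Its lowest value was again that of control replicate 1. Folr2 was too dim to be tested (percentile 14.0 of mean intensity), at 7.03 ± 0.090 (SD, n = 3) in controls and 7.15 ± 0.22 (SD, n = 4) with arsenic, and the labelled knockout cannot be checked here because the part of the transcript its probe covers is not given in the sources used here. Of the markers of the labelled tissue, 18 of 20 neural progenitor genes on the array passed the filter on dim probes, with log2 control means of 12.15 for Sox11, 8.22 for Sox2 and 7.49 for Pax6, and 18 of 21 dorsal and ventral patterning genes did, with 10.41 for Zic1 and 10.34 for Pax3. Markers of other tissues passed it too, among them 13 of 16 blood, 15 of 18 endothelial and 9 of 18 heart and muscle genes. Since probes differ in brightness for the same amount of RNA, these levels do not check the dissection.

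None of the 20 genes with the lowest p, 10 in each direction, passed the threshold, and limma's unadjusted p for them ran from 0.000155 to 0.0038. All 20 had groups that did not overlap, as a low p selects for, and 16 of the 20 had an interval within 2-fold. Aprt, which salvages adenine for nucleotide synthesis, had the lowest p. Its log2 intensities were 8.98, 8.64 and 8.87 in controls and 9.75, 9.54, 9.59 and 9.53 with arsenic, a difference of 0.77 ± 0.106 (SE; adjusted p = 0.958 by limma). Mdh1, the cytosolic malate dehydrogenase, read 11.98, 11.93 and 11.91 in controls and 12.68, 12.96, 13.22 and 12.54 with arsenic, a difference of 0.91 ± 0.163. The controls of Mdh1 were tight (SD 0.037) and its arsenic arrays wider (SD 0.303).

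**Figure D2:**
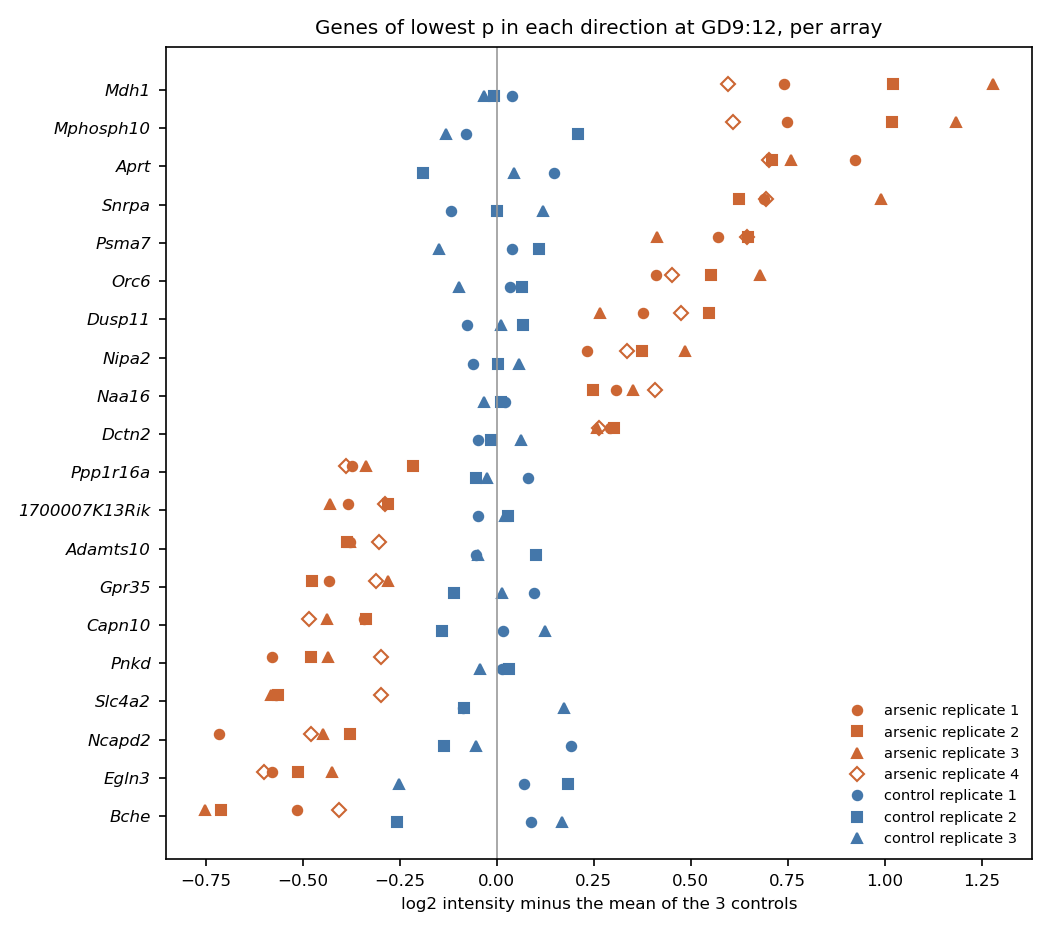
Log2 intensity of each of the 7 GD9:12 arrays minus the mean of the 3 controls, for the 10 genes of lowest p in each direction. Every arsenic point of a gene lies to one side of all its control points, yet no gene has an adjusted p below 0.958.

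Mphosph10, a component of the U3 particle that processes ribosomal RNA, read 9.79, 10.08 and 9.74 in controls and 10.62, 10.88, 11.05 and 10.48 with arsenic, a difference of 0.89 ± 0.161. Snrpa, a protein of the U1 splicing particle, read 9.13, 9.25 and 9.37 against 9.94, 9.87, 10.24 and 9.94, a difference of 0.75 ± 0.112. Both sat among probes of neighbouring number that were also higher, 9 of 10 in each case, with neighbour medians of 0.19 for Mphosph10 and 0.27 for Snrpa. With the local trend removed, the difference was 0.85 for Mphosph10 and 0.61 for Snrpa. Psma7, a subunit of the proteasome core, read 8.67, 8.74 and 8.48 in controls and 9.20, 9.28, 9.04 and 9.28 with arsenic, a difference of 0.57 ± 0.098. Orc6, part of the complex that marks replication origins, read 9.26, 9.29 and 9.13 against 9.64, 9.78, 9.91 and 9.68, a difference of 0.52 ± 0.091. The remaining genes of this direction differed by 0.28 to 0.42: Dusp11, an RNA phosphatase (0.42), Nipa2, a magnesium transporter (0.36), Naa16, an accessory subunit of a protein N-terminal acetyltransferase (0.33), and Dctn2, a dynactin subunit (0.28). Neighbours by number were higher in 10 of 10 for Naa16 and in 9 of 10 each for Dusp11 and Dctn2 (medians 0.08, 0.08 and 0.09), and the values with the local trend removed were 0.28, 0.35 and 0.23.

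The 10 genes lower with arsenic differed by -0.33 to -0.60, where the 10 higher ones ran from 0.28 to 0.91. Bche, the butyrylcholinesterase gene, read 9.49, 9.15 and 9.57 in controls and 8.89, 8.69, 8.65 and 9.00 with arsenic, a difference of -0.60 ± 0.137. Egln3, an oxygen-sensing prolyl hydroxylase that marks HIF for destruction, read 9.42, 9.53 and 9.10 against 8.77, 8.84, 8.93 and 8.75, a difference of -0.53 ± 0.117. Ncapd2, a condensin subunit needed for mitotic chromosome condensation, read 13.44, 13.11 and 13.19 in controls and 12.53, 12.87, 12.80 and 12.77 with arsenic, a difference of -0.50 ± 0.117. Slc4a2, an exchanger of chloride and bicarbonate, read 8.55, 8.55 and 8.81 against 8.07, 8.08, 8.06 and 8.34, a difference of -0.50 ± 0.109. Pnkd differed by -0.45 ± 0.085 on its brighter probe and by -0.04 ± 0.084 on its second. The other 5, Capn10 (-0.40), Gpr35 (-0.38), Adamts10 (-0.36), 1700007K13Rik (-0.35) and Ppp1r16a (-0.33), all read between 7.68 and 8.94 on every array. All 10 neighbours by number were lower for both Adamts10 (median -0.09) and 1700007K13Rik (-0.14), and with the local trend removed these genes differed by -0.31 and -0.26.

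These genes did not show the same direction throughout the earlier stages. Of the 10 higher at GD9:12, 7 had a difference above 0 at GD8:15 and 5 at GD9:00. Of the 10 lower, 3 of the 9 with a value at GD8:15 and 3 of 10 at GD9:00 had a difference below 0. Mdh1 differed by -0.78 at GD8:15 and -0.28 at GD9:00, Mphosph10 by -0.60 and -0.29, and Aprt by 0.05 and -0.72. Bche differed by 1.19 at GD8:15 and Egln3 by 0.98 at GD9:00.

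Most of the 10 stress genes described first had small mean differences at this stage, and Asns and Cdkn1a were divided within the arsenic group. Of 10 stress genes named whatever their values at this stage, 0 had separate groups, all 10 had an interval that included 0, and 9 had an interval within 2-fold. All 10 had a smaller difference than at GD8:15 and than at GD9:00, where the interval lay above 0 for 8 of the 10 at each stage. They were named with the earlier stages' results known, so the larger values there are a description and the tests between stages below are not independent evidence. Several of these probes were dim at GD9:12. Control means were 7.21 for Stc2, 7.42 for Atf3 and 7.56 for Chac1, and Hmox1 and Cdkn1a were similarly dim. Folr2, left out of the tests as too dim, averaged 7.03 in controls. Atf4 (12.19) and Asns (9.23) were brighter. A narrow interval on a dim probe does not show that expression was unchanged. Whether these probes could register a small change was not tested. Hmox1, which degrades heme and is a classic arsenic-responsive gene, read 7.26, 7.36 and 7.38 in controls and 7.42, 7.31, 7.28 and 7.29 with arsenic. Its difference was -0.01 (95% interval -0.18 to 0.17), against 1.78 at GD8:15 and 1.24 at GD9:00. The arsenic and control arrays of Hmox1 overlapped, and the sign of so small a difference turned under 6 of the alternatives, among them the removal of the local trend (0.02).

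**Figure D3:**
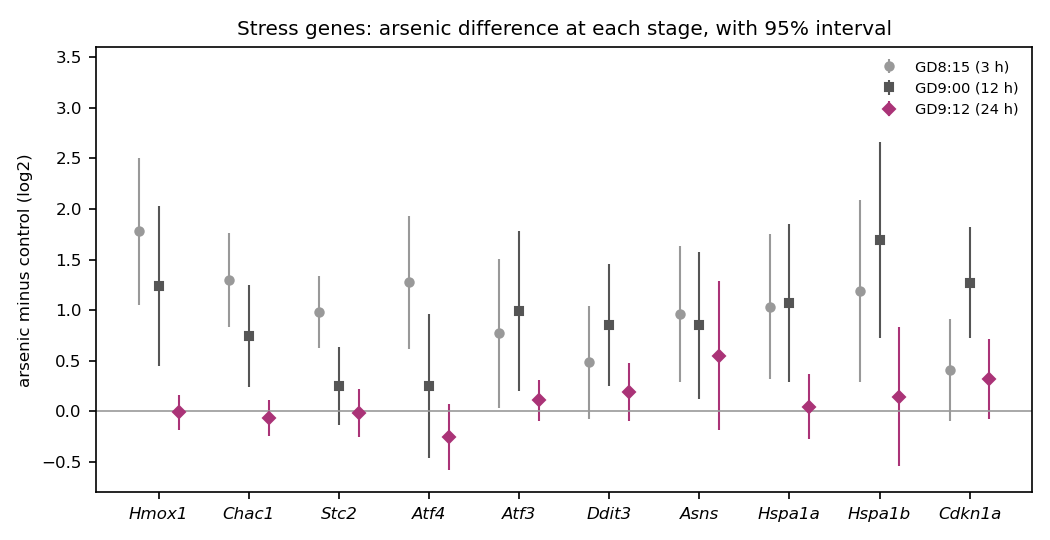
Arsenic minus control log2 difference of 10 stress genes at GD8:15, GD9:00 and GD9:12, with 95% intervals. The interval at GD9:12 uses the spread of its 7 arrays and the others that of all 22; at GD9:12 all 10 intervals cross 0, while at each earlier stage 8 lie above it.

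The same held for Chac1, Stc2 and Atf4 of the integrated stress response. Chac1, a glutathione-degrading enzyme induced through ATF4, read 7.58, 7.53 and 7.57 in controls and 7.58, 7.47, 7.54 and 7.39 with arsenic, a difference of -0.07 (interval -0.24 to 0.11, and 0.01 with the local trend removed) against 1.30 at GD8:15. Stc2, a secreted glycoprotein induced in the same response, differed by -0.01 (-0.25 to 0.22, and 0.02 with the local trend removed) against 0.98 at GD8:15. Atf4 itself read 12.08, 12.27 and 12.22 in controls and 11.65, 12.00, 12.22 and 11.88 with arsenic, a difference of -0.25 (-0.58 to 0.07) against 1.27. Tested as a difference between stages over all 22 arrays, the effect at GD9:12 minus that at GD8:15 was -1.79 ± 0.512 for Hmox1, -1.37 ± 0.325 for Chac1, -1.0 ± 0.25 for Stc2 and -1.53 ± 0.460 for Atf4. Unadjusted limma p-values were 0.00258, 0.000519, 0.000832 and 0.00383, and none passed adjustment over all probes (lowest adjusted p of the 4, 0.808).

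Over all probes, 0 of 7835 (0%) had a called difference between the effects at GD9:12 and GD8:15, and 324 (4.14%) stood at an unadjusted p under 0.05, with 209 (2.67%) lower at GD9:12. The corresponding numbers against GD9:00 were 0 of 7847 (0%) and 495 (6.31%), with 177 (2.26%) lower at GD9:12. That direction depended on the scaling: with the authors' scaling kept, 887 probes stood at an unadjusted p under 0.05 against GD9:00, and 714 were lower at GD9:12. The integrated stress response list (26 genes, 23 on the array) had 19 tested members, of which 10 were above 0 and 9 below, with a median difference of 0.02, and 0 passed. Its median was 0.42 at GD8:15 and 0.36 at GD9:00, where the median over all tested probes was 0.0026 and 0.0083. Atf3 differed by 0.11 (-0.09 to 0.31), Ddit3, which encodes CHOP, by 0.19 (-0.09 to 0.48), and the inducible Hsp70 genes Hspa1a by 0.05 (-0.27 to 0.37) and Hspa1b by 0.15 (-0.54 to 0.84). With the local trend removed Atf3 was at 0.19, Ddit3 at 0.09 and Hspa1a at 0.11. The Hsp70 pair are near-identical copies that their probes may not tell apart. Eif2ak3, the sensor kinase PERK, differed by 0.28 ± 0.108 with an unadjusted limma p of 0.037.

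Asns and Cdkn1a were divided within the arsenic group. Asns, the asparagine synthetase gene and an ATF4 target, read 9.73, 9.02 and 8.94 in controls and 10.03, 10.01, 10.05 and 9.03 with arsenic, a difference of 0.55 ± 0.312. Arsenic replicate 4 lay among the controls, and control replicate 1 lay nearest to the other 3 arsenic arrays. Cdkn1a, a p53 target that halts the cell cycle, read 7.23, 7.25 and 7.13 in controls and 7.42, 7.90, 7.61 and 7.16 with arsenic, a difference of 0.32 ± 0.169 against 1.27 at GD9:00. Again 3 arsenic arrays were above the controls and replicate 4 was not. Without replicate 4, an array singled out after its values were seen, Asns differed by 0.80 ± 0.216 and Cdkn1a by 0.44 ± 0.134. Neither passed (adjusted p = 0.596 and 0.616 by limma). The lowest values with 1 array left out were 0.40 for Asns (without control replicate 3) and 0.19 for Cdkn1a (without arsenic replicate 2).

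Other p53 and stress genes gave values in both directions. In the list of p53 targets and apoptosis genes, 18 members were tested, 9 above and 9 below 0 (median 0.03), and 0 passed. Gadd45a, a DNA damage gene, differed by 0.46 ± 0.147, Tnfrsf10b, a death receptor, by 0.39 ± 0.139, and Ccng1 by 0.80 ± 0.381, with 9.00, 10.02 and 9.33 in controls and 10.27, 10.94, 10.37 and 9.43 with arsenic. The NRF2 and antioxidant list had 15 of 28 members above 0 (median 0.01), with Nfe2l2, which encodes NRF2, at 0.30 ± 0.140 (0.20 with the local trend removed) and Gstm1 at -0.56 ± 0.273. In the metal response and arsenic handling list, 5 of 9 lay above 0 (median 0.03), with Gsto1 at 0.31, the arsenic methyltransferase As3mt at -0.16 and the metallothionein Mt2 at 0.17. The inducible heat shock list had 7 of 13 above 0 (median 0.05), led by Hsp90aa1 at 0.52 ± 0.246. DNA repair genes had 8 of 21 above 0 and a median of -0.02, which was 0.03 with the authors' scaling.

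Of 17 tested chaperones of the endoplasmic reticulum, 13 had a difference above 0 at GD9:12, against 6 at GD8:15 and 5 at GD9:00. The list median was 0.14, against -0.19 and -0.21, and 0 passed. Hsp90b1, the chaperone GRP94, read 9.16, 9.61 and 9.20 in controls and 10.63, 9.96, 9.94 and 9.47 with arsenic, a difference of 0.67 ± 0.265, against 0.52 at GD8:15 and -0.75 at GD9:00. Pdia3, a disulfide isomerase, read 10.92, 10.87 and 10.27 against 11.44, 12.14, 11.36 and 10.62, a difference of 0.70 ± 0.347, against 0.21 and -0.30. In both genes arsenic replicate 4 was the lowest of its group and lay within the control range. The difference between list medians at the stages was not tested.

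Growth and housekeeping lists mostly had medians a little above that of all probes. Glycolysis and pentose phosphate genes had 19 of 24 members above 0 and a median of 0.18, the largest of the 36 lists, where 46.4% of all tested probes lay above 0. Pkm, pyruvate kinase, read 9.34, 10.94 and 9.66 in controls and 10.92, 11.76, 11.24 and 10.04 with arsenic, a difference of 1.01 ± 0.50 with overlapping groups. Proteasome genes had 27 of 34 above 0 (median 0.15), chaperonin and prefoldin genes 11 of 14 (0.15), folate and one-carbon genes 14 of 20 (0.11), translation factors 18 of 27 (0.09) and oxidative phosphorylation genes 38 of 52 (0.08). Cytosolic ribosomal protein genes had 26 of 51 above 0 (0.02) and mitochondrial ones 26 of 49 (0.02), and both medians were below 0 with array medians subtracted (-0.04 and -0.01). No member of any list passed the threshold.

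**Figure D4:**
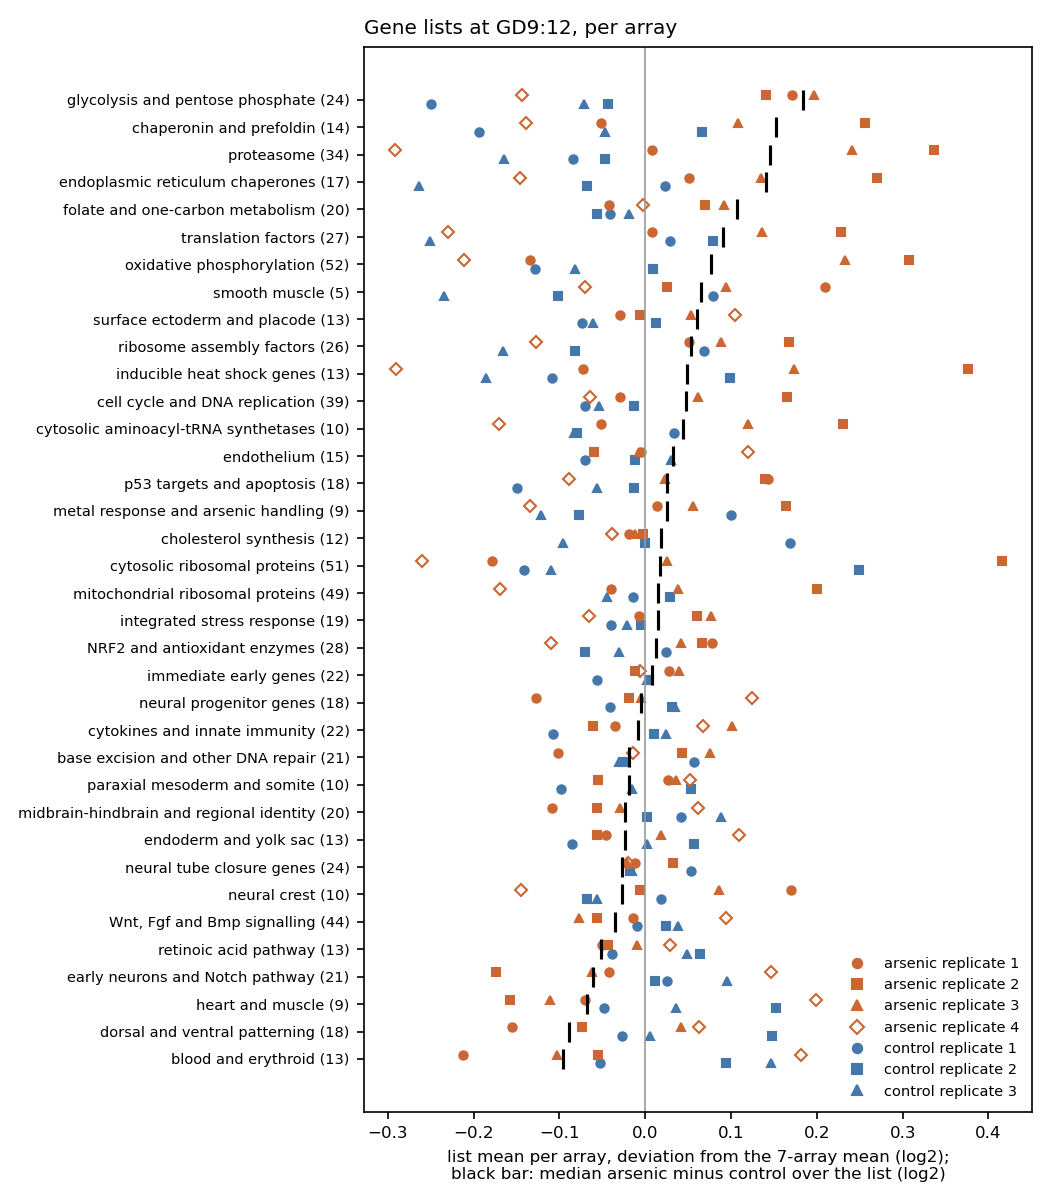
Mean of each of 36 gene lists on each GD9:12 array, as the deviation from the 7-array mean (log2), with the number of tested genes in brackets; the black bar is the median arsenic minus control difference over the list. Arsenic and control points overlap in every list, and the open diamond of arsenic replicate 4 is the lowest or highest arsenic point in 31 lists.

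These list means overlapped between the groups and moved with single arrays. In 0 of the 36 lists did all 4 arsenic arrays lie above or all below the 3 controls. Arsenic replicate 4 was the lowest or the highest arsenic array in 31 of the 36. For the proteasome the mean deviations were 0.01, 0.34, 0.24 and -0.29 in arsenic replicates 1 to 4, and the list median was 0.26 without replicate 4 and 0.06 without replicate 2. For cytosolic ribosomal protein genes the median of 0.02 became 0.09 without arsenic replicate 4 and -0.11 without replicate 2. Without arsenic replicate 2 the median was -0.01 for translation factors and 0.03 for chaperonin and prefoldin genes, and that of oxidative phosphorylation ran from 0.03 to 0.20 with 1 array left out. The folate and one-carbon median ran from 0.06 to 0.15 in the same way. The glycolysis median was 0.24 without arsenic replicate 4 and 0.12 without control replicate 1.

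The members of lowest p in these lists lay in both directions. Gcsh, of the glycine cleavage system that feeds the folate pool, differed by 0.35 ± 0.084, with 8.48, 8.63 and 8.58 in controls and 9.01, 8.92, 8.93 and 8.77 with arsenic. Folr1, the main folate receptor of the embryo, differed by -0.28 ± 0.137 and had differed by 0.60 at GD8:15 and 0.59 at GD9:00. The ATP synthase subunit gene Atp5b differed by 0.60 ± 0.148 and Cox7a2, of cytochrome oxidase, by -0.59 ± 0.206. Stip1, a cochaperone that links Hsp70 and Hsp90, differed by 0.51 ± 0.143. Among chaperonin subunits, Cct3 differed by -0.85 ± 0.283 and Cct4 by 0.74 ± 0.331. The Cct4 value was 0.29 without control replicate 1, and a second Cct4 probe was at 0.02. Rpl11 differed by 0.47 ± 0.126 and Rpl29 by -0.39 ± 0.128.

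Lists of genes that pattern and close the neural tube had medians from -0.09 to -0.01. Neural tube closure genes had 8 of 24 tested members above 0 (median -0.03), and 23 of the 24 had an interval within 2-fold. Scrib, a planar polarity gene required for closure, differed by 0.42 ± 0.231 (0.18 without control replicate 2), and Pax3 by -0.14. All 10 neighbours of Scrib by number were higher (median 0.19), and its value with the local trend removed was 0.36. Neural progenitor genes were split 9 and 9 (median -0.01, and 0.0074 with the authors' scaling), with Ptn, a secreted growth factor, at 0.48 ± 0.151 (0.22 with the local trend removed, unadjusted limma p 0.416), Sox11 at -0.24 and Sox2 at 0.12. Dorsal and ventral patterning genes had 5 of 18 above 0 (median -0.09, and 0.02 without control replicate 2), with Zic1 at -0.45, the Hedgehog effectors Gli1 at -0.35 and Gli2 at -0.32, Msx1 at 0.38 (0.16 without control replicate 2) and the roof plate ligand Bmp7 at 0.19 ± 0.072. All 10 neighbours of Gli1 by number were lower (median -0.09), and its value with the local trend removed was -0.30. Midbrain-hindbrain and regional identity genes had 7 of 20 above 0 (median -0.02), from -0.60 to 1.18. Only 14 of the 20 had an interval within 2-fold, where 91.9% of all probes did. In this list En1 and En2 differed by -0.56 and -0.48, the latter by -0.19 without control replicate 1, and Fgf18, a signal from their boundary, by -0.34.

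Signalling and neuronal lists lay slightly below 0, except that the Wnt, Fgf and Bmp median was 0.0056 with the authors' scaling. Early neuron and Notch genes had 8 of 21 above 0 (median -0.06), led by Rfng, a glycosyltransferase acting on Notch, at -0.27 ± 0.084. The retinoic acid list had 4 of 13 above 0 (median -0.05), with the synthesis enzyme Aldh1a1 at -0.39 ± 0.151. Among Wnt, Fgf and Bmp genes 18 of 44 were above 0 (median -0.03); Lef1, a nuclear effector of Wnt, read 9.59, 8.88 and 8.86 in controls and 8.62, 8.30, 8.62 and 8.83 with arsenic, a difference of -0.52 ± 0.211 (-0.27 without control replicate 1). Control replicate 1 was the highest, and the groups of Lef1 did not overlap.

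Egr2, of the regional identity list, and Sox10, of the neural crest list, had the largest differences of those lists, and both were divided within the arsenic group. Egr2, also called Krox20, specifies hindbrain segments, and Sox10 is a factor of migrating neural crest. Egr2 read 7.28, 7.23 and 7.26 in controls and 9.16, 8.86, 8.65 and 7.10 with arsenic, a difference of 1.18 (95% interval 0.09 to 2.28). Sox10 read 9.05, 8.66 and 8.41 in controls and 10.58, 9.95, 10.04 and 8.50 with arsenic, a difference of 1.06 ± 0.465. In each gene arsenic replicates 1 to 3 were above every control. The 2 probes are close by number, and each was the highest neighbour of the other. Of 10 neighbours, 4 were higher for Egr2 (median -0.05) and 7 for Sox10 (0.06). With the local trend removed the differences were 1.23 and 1.11. Whether their shared pattern comes from their position was not tested. Replicate 4 lay within the control range for Sox10 and just below it for Egr2. Without replicate 4 the Egr2 difference was 1.63 ± 0.138 (adjusted p = 0.164 by limma) and that of Sox10 1.48 ± 0.230 (adjusted p = 0.490). Replicate 4 was singled out after its values were seen, so the larger differences and smaller errors follow from that choice. Without arsenic replicate 1 the differences were 0.95 and 0.79.

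**Figure D5:**
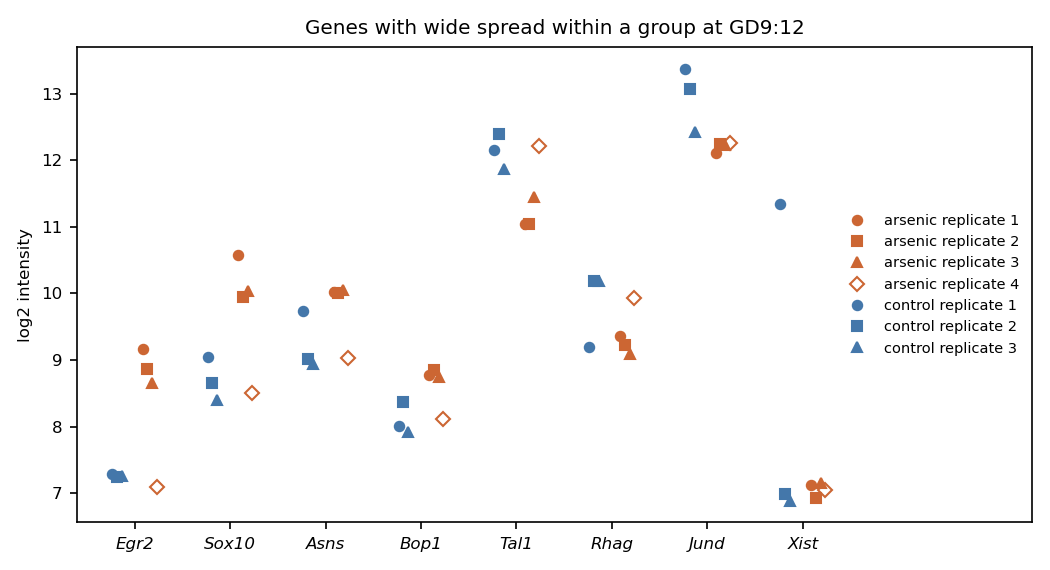
Log2 intensity on the 7 GD9:12 arrays for 8 genes with wide spread within a group. Arsenic replicate 4 (open diamond) lies within the control range for Sox10, Asns, Bop1, Tal1 and Rhag and just below it for Egr2, while Xist is high on control replicate 1 alone.

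At the earlier stages the Egr2 difference had the opposite sign, -0.81 at GD8:15 and -0.90 at GD9:00. Tested between stages, its effect at GD9:12 exceeded that at GD8:15 by 2.0 ± 0.547 and that at GD9:00 by 2.08 ± 0.57, with unadjusted limma p-values of 0.00181 and 0.00174, and neither passed adjustment. The neural crest list, Sox10 included, had 5 of 10 tested genes above 0 (median -0.03). Its other members lay in both directions, with Twist1 at 0.25, Prrx2 at 0.22, Foxd3 at -0.30, Tfap2a at -0.23 and Ednrb at -0.24. Hoxa2, a hindbrain gene, differed by -0.03.

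The blood genes Tal1 and Rhag were low on arsenic replicates 1 to 3 and not on replicate 4. Tal1, a master factor of blood formation, read 12.16, 12.39 and 11.88 in controls and 11.05, 11.04, 11.45 and 12.22 with arsenic, a difference of -0.70 ± 0.301. Rhag, an erythroid membrane protein, read 9.19, 10.18 and 10.19 against 9.36, 9.22, 9.09 and 9.93, a difference of -0.46 ± 0.304, and control replicate 1 was as low as the 3 arsenic arrays. All 10 neighbours of the Tal1 probe by number also had differences below 0 (median -0.15), and its value with the local trend removed was -0.69. For Rhag 8 of 10 neighbours were lower (median -0.11), and the value with the local trend removed was -0.42. The 2 probes are close by number (1064 and 1077), and whether their shared pattern comes from their position was not tested. The blood list as a whole had 5 of 13 members above 0 (median -0.10), with the adult globin Hba-a1 at 0.35 and the embryonic Hba-x at -0.32. Its mean deviation was -0.05, 0.09 and 0.15 in controls and -0.21, -0.06, -0.10 and 0.18 in arsenic arrays. In bulk tissue, fewer cells of a type and less RNA per cell cannot be told apart.

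Markers of the other tissues around the neural tube were measured and lay near 0. Heart and muscle genes had 3 of 9 above 0 (median -0.07), with Actc1 at -0.31 and Gata4 at -0.27 ± 0.112. Smooth muscle genes had 3 of 5 above 0 (median 0.06), and Tagln read 8.74, 9.28 and 8.53 in controls and 10.21, 9.61, 9.33 and 9.30 with arsenic, a difference of 0.76 ± 0.269, with 9 of 10 neighbouring probes also higher (median 0.21). Endothelial genes had 10 of 15 above 0 (median 0.03), with Sox18 at 0.34 ± 0.129 and Fli1 at 0.37 ± 0.252. All 10 neighbours by number of each of those 2 probes were higher too (medians 0.30 and 0.28), and with the local trend removed the differences were 0.23 and 0.18. Surface ectoderm (8 of 13 above 0, median 0.06), paraxial mesoderm (5 of 10, -0.02), and endoderm and yolk sac genes (5 of 13, -0.02) completed these lists; with the authors' scaling the last 2 medians were 0.0052 and 0.0026. Their part in the other results was not tested.

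Immediate early genes were led by Jund and Egr2 in opposite directions. Jund, an AP-1 factor, read 13.38, 13.07 and 12.42 in controls and 12.11, 12.24, 12.24 and 12.25 with arsenic, a difference of -0.75 ± 0.211, against 1.25 at GD8:15. The 4 arsenic arrays were close together and the controls were spread over a wider range, with all controls above them. Fos differed by -0.19, and 13 of the 22 tested genes of this list were above 0 (median 0.01). In the cytokine list 11 of 22 lay above 0 (median -0.01, and 0.02 with the authors' scaling), with Il18 at -0.74 ± 0.204 and the chemokine gene Cxcl12 at 0.50 ± 0.175 (0.30 without control replicate 1).

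Differences over 2-fold were rare, and no such probe had separate groups. Of 7848 probes, 12 (0.153%) differed by more than 2-fold, 7 higher and 5 lower, and the groups overlapped in all 12. By group medians, 26 probes (0.331%) differed by more than 2-fold. Among the 5 lower ones, Xist, Slc22a8 and Stc1 were high on 1 control array each. Slc22a8, an organic anion transporter, had the lowest difference, -1.84 ± 1.29, with 12.59, 7.15 and 7.10 in controls and 7.09, 7.03, 7.12 and 7.17 with arsenic. The hormone gene Stc1 was high on control replicate 3 alone (12.25, against 7.14 and 7.21), with a difference of -1.69 ± 1.19. Wfdc1 read 10.19, 10.77 and 11.11 in controls and 9.00, 9.31, 8.93 and 10.74 with arsenic, a difference of -1.19 ± 0.467 in which replicate 4 again lay among the controls. Phlda2, an imprinted growth regulator, read 9.51, 9.62 and 8.54 against 10.66, 10.79, 10.84 and 8.71, a difference of 1.02 ± 0.571 with the same division. These 4 were chosen after their values were seen.

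Across the 36 lists, 744 different genes were tested, and 38 of them (5.11%) stood at an unadjusted p under 0.05, against 3.99% of all probes. The 2 shares were near each other. List medians were above 0 in 22 lists and below in 14, and the largest in size was 0.18.

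Between GD9:12 and GD9:00, the probe of lowest p with a symbol was that of Chst1, a sulfotransferase. It read 10.37, 9.99 and 10.36 in controls and 9.65, 9.81, 9.82 and 9.45 with arsenic at GD9:12, a difference of -0.56 ± 0.137, against 1.58 at GD9:00. The difference of effects was -2.14 ± 0.452 (lowest adjusted p of that comparison 0.772 by limma). Dtnbp1, which encodes dysbindin, differed by 0.21 ± 0.079 at GD9:12 and -0.82 at GD9:00, a difference of effects of 1.03 ± 0.226. Pcp2 differed by -0.05 at GD9:12 and 0.87 at GD9:00. Against GD8:15, the probes of lowest p were 1700037H04Rik, with a difference of effects of -0.86 ± 0.192, and 2310076G13Rik, with 0.62 ± 0.146. All 10 neighbours of the latter by number were higher at GD9:12 (median 0.17).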

How the data were processed

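RNA from the anterior neural tube was measured on 22 one-colour CodeLink arrays, of which 7 (GD9:12) enter the comparison. The authors deposited linear intensities, whole numbers whose mean is the same on all arrays of a stage; scanner software, background correction and the scaling method are not given in the sources used here, and the labels' protocols give only amplification and labelling. The 838 values of 1 or 2 (317 on these 7 arrays) were taken as missing. Values were log2 transformed and quantile normalised over all 22 arrays in place of the authors' scaling.

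A probe was tested with values on at least 2 arrays of each GD9:12 group and a mean above the lowest 25% of probes, which left 7848 of 10500. Of all probes 9378 had 1 gene symbol, 8 several and 1114 none in an array annotation that can be old, and 9329 symbols were found in the reference. The 7276 tested probes with 1 symbol stand for 7175 genes, and a gene is represented by its brightest probe. Levels are not compared between probes.

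Arsenic was set against control with limma 3.58.1 (lmFit, eBayes) in R 4.3.3 on the 7 arrays, two-sided, with Benjamini-Hochberg adjustment over all tested probes and a threshold of 0.05. Differences between stages used 1 fit of 6 group means over all 22 arrays. Xist and Eif2s3y had exact permutation tests. Named genes are the 10 of lowest p in each direction, up to 3 of lowest p in each of 36 lists, 5 of lowest p in each difference between stages and 12 others, with further list members added to describe a list. Members and lists were chosen with earlier results of these data known. Lists are described by counts and medians, without a test. The number of arrays limits the precision. The fit of the 7 arrays was tested on simulated data with noise drawn independently for each probe, unlike the correlated neighbours seen here. The fit between stages was not tested in this way. Figures were drawn with matplotlib 3.10.9 in Python 3.11.15.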

Additional observations from a re-analysis of the deposited data

Results flagged for a closer look

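In 10 of 135 named genes and 1 of the 36 list means, 1 of the 4 arsenic arrays stood far from the others: its gap to the nearest, divided by the range of the group, exceeded Dixon's 95% critical value for 4 samples. About 1 group in 20 exceeds it by chance. Arsenic replicate 4 was the outlying array for Adamts10 (ratio 0.904), Slc4a2 (0.938), Asns (0.958), Fos (0.868), Mrpl33 (0.944), Bop1 (0.863), Cnn1 (0.851), Tcf15 (0.925) and the mean of the glycolysis and pentose phosphate list (0.837). Replicate 1 was the outlying array for Jund (0.884) and replicate 2 for Wnt4 (0.945).

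For Asns replicate 4 read 9.03, against 10.01 to 10.05 on the other 3. Bop1, a ribosome assembly factor, read 8.77, 8.85 and 8.75 on replicates 1 to 3 and 8.11 on replicate 4, where the controls read 8.01, 8.37 and 7.92. Tcf15, a somite gene, read 7.17 to 7.22 on the other 3 and 7.86 on replicate 4, and Cnn1, a smooth muscle gene, 8.04 to 8.15 against 7.43. In Adamts10, Slc4a2, Mrpl33, Jund and Wnt4 the outlying array still lay on the same side of all controls as the other 3. The gap was small in absolute size for Mrpl33 (9.79 against 9.85 to 9.86) and Wnt4 (7.65 against 7.53). It was also small for Adamts10 (8.27 against 8.19 to 8.20) and Jund (12.11 against 12.24 to 12.25).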

How the results depend on the processing

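Under all 18 other settings of the GD9:12 comparison (17 planned and 1 added), the number of probes called by limma was 0, and the lowest adjusted p ranged from 0.159 (without control replicate 2) to 1. The count at an unadjusted p under 0.05, 313 as reported, was 108 with the spread of all 22 arrays, 186 with the authors' scaling, 206 with the lowest 50% of probes left out and 922 with array weights. Leaving out 1 array gave 182 (without arsenic replicate 3) to 626 (without arsenic replicate 4). The split of these probes, 147 higher and 166 lower as reported, was 114 and 72 with the authors' scaling and 62 and 244 with array medians subtracted. Removing the local trend along probe numbers, chosen after seeing the data, gave 303, with 152 higher and 151 lower.

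For the difference between the effects at GD9:12 and GD8:15, 324 at an unadjusted p became 197 with the lowest 50% of probes left out and 701 with array weights, and 232 to 343 with 1 array left out. Without control replicate 1, 1 probe without a symbol was called (-0.78, adjusted p = 0.0313); the range over arrays left out was 0 to 1. Against GD9:00, 495 became 887 with the authors' scaling, 761 with array medians, 1193 with array weights, and 329 (without control replicate 3) to 634 (without arsenic replicate 4) with 1 array left out. The split, 318 higher and 177 lower at GD9:12 as reported, turned to 173 and 714 with the authors' scaling. It was 530 and 231 with array medians and 584 and 609 with array weights. In the comparison with GD9:00, 1 probe was called with array medians (Dtnbp1, 1.23, adjusted p = 0.0467) and 17 with array weights. Among the 17 were Egr2 (2.03), Mphosph10 (1.68), Chst1 (-1.78) and Cdkn1a (-1.11). Several of the 17 lay close by probe number, such as 9735, 9737 and 9741, and 10341 (Mphosph10), 10342 and 10347. Whether their position played a part was not tested. Xist differed by -1.34 as reported, and by -2.10 (without control replicate 3) to 0.12 (without control replicate 1) with 1 array left out.

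Of 135 named genes, 127 kept the sign of their difference in every setting, including all 20 of lowest p. Hmox1, Chac1, Stc2, Hspa1a, Hspa1b, Pcp2, Tcf15 and Xist did not. The 20 were chosen for a low p on these same arrays, and their groups did not overlap. Leaving out an array therefore could not turn their sign, and settings that changed only the spread left the difference as it was. The kept sign of these 20 genes is thus largely fixed by their selection and is no separate evidence for them. The median kept its sign in 15 of 36 lists, among them the endoplasmic reticulum chaperones (0.07 to 0.22), proteasome (0.06 to 0.26), glycolysis (0.12 to 0.24) and blood (-0.12 to -0.02). The causes of these changes were not tested. No paired analysis was possible because the labels carry no replicate numbers, and those used here follow accession order.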
